A study of Mus musculus with 4 samples.

Results

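The 6 genes described here encode subunits of the NMDA receptor, the glutamate-gated cation channel of excitatory synapses: Grin1, Grin2a, Grin2b, Grin2c, Grin2d and Grin3a. They were chosen by name, not by their values, although earlier results of these data were known. They are 6 of the 31053 genes in the count matrices. The cells came from the ventromedial prefrontal cortex (vmPFC, prelimbic and infralimbic areas) of male C57BL/6 mice, with no genetic modification named. The mice are labelled as 8 weeks old, which in the methods is the age at virus injection. Every mouse had received 5 retrograde adeno-associated viruses, each with EGFP and its own barcode. The targets were the agranular insula, dorsomedial striatum, mediodorsal thalamus, basolateral amygdala and lateral hypothalamus. Tissue was taken 6 weeks later, so the mice were then older than labelled. Unsorted replicates 1 to 3 are 3 libraries titled mouse 1, 2 and 3, and sorted replicate 1 is a single library of EGFP-sorted cells pooled from mouse 4 to 6. No library from uninjected mice was analysed here, so every group carries the viruses. During dissociation the slices were incubated with CNQX and with D-AP5, a blocker of the receptor studied here.

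NMDA receptors are tetramers. They combine the obligatory glycine-binding GluN1 subunit (Grin1) with glutamate-binding GluN2 subunits (Grin2a to Grin2d) or with glycine-binding GluN3 subunits (Grin3a and Grin3b). The channel passes calcium and is blocked by magnesium near the resting potential, so that it opens when glutamate binding and depolarisation coincide. In the rodent forebrain the GluN2B subunit is prominent early and GluN2A rises after birth, and receptors with GluN2A deactivate faster. GluN2C and GluN2D give receptors that are less sensitive to magnesium, and GluN3A lowers calcium permeability.

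In GRCm38 coordinates (GENCODE vM21), Grin1 lies at chr2:25291181-25319187, Grin2a at chr16:9567898-9995560, Grin2b at chr6:135713233-136173511, Grin2c at chr11:115249169-115267243, Grin2d at chr7:45831883-45878378 and Grin3a at chr4:49661611-49845744, all on the minus strand. An antisense gene, Grin1os, overlaps Grin1, and it had 49 counted transcripts (UMIs) in all unsorted excitatory neurons. Counts were made at the 3′ end of transcripts, so splice forms were not measured, and levels are compared here between groups of cells and not between genes. RefSeq start-site windows (GRCm38.p6) were at hand for 3 of the 6 genes, Grin1, Grin2c and Grin2d. The window of Grin2c is shown because this gene was found mainly in 1 class of cells, the astrocyte-like cells. It is the 250 bases before the start at chr11:115267244-115267493, read on the minus strand, with CG dinucleotides in capitals.
Grin2c: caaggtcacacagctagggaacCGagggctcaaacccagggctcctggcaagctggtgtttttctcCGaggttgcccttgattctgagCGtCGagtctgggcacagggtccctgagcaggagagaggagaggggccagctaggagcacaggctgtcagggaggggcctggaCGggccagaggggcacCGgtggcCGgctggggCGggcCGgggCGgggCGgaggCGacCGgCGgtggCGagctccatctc
The window holds 15 CG dinucleotides, and 27.3% of 32851 windows of this length hold as many or more. The Grin1 window holds 27, which 8.56% of windows reach. This count is a description of the sequence.

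The libraries held 8040, 7443 and 7243 cell barcodes (unsorted) and 2075 (sorted), with 83065993 to 87841541 UMIs per unsorted library and 54749198 in the sorted one. The deposited annotation lists 9368 excitatory neurons in 7 subtypes, 7765 of them unsorted. Inhibitory cells, which the annotation does not hold, were taken as cells with at least 4 Gad1 and Gad2 UMIs together and at most 3 Slc17a7 UMIs: 443, 453 and 382 cells of unsorted replicates 1 to 3 passed the quality limits, and so did 5 sorted cells, which were not analysed. Slc17a7 (vesicular glutamate transporter) was at 1033 CPM in excitatory neurons and 11.9 in inhibitory cells, and Gad1 (GABA synthesis) at 1.95 and 1051 CPM. Both genes took part in the choice of the inhibitory cells, and the paper took its excitatory neurons as cells expressing Slc17a7. These values therefore describe the choice and are no support for the names. Levels are counts of unique molecular identifiers (UMIs, tags of single transcripts) summed over the cells of a library and given per 1000000 summed UMIs (CPM), with n = 3 unsorted libraries unless stated.

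Across the 7 excitatory subtypes, Grin1 varied little, Grin2a and Grin2b varied in different orders, and Grin3a varied most among the well-counted genes. The subtypes were clustered by the authors on the same cells, so these differences are described by whether the ranges over the 3 libraries overlap, with no test.

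Grin1, the subunit every receptor needs, had 243, 217 and 241 CPM in L2/3-Calb1 neurons, the highest subtype (234 ± 14.6, SD), and 193, 192 and 199 CPM in L6-Syt6 neurons, the lowest (195 ± 3.61). The highest mean was 1.20 times the lowest. Of the 6 pairs of neighbours in the order L2/3-Calb1, L2/3-Rorb, L5-S100b, L5-Htr2c, L5-Bcl6, L6-Npy and L6-Syt6, only L2/3-Rorb and L5-S100b had ranges that did not overlap.

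Grin2a was lowest in L6-Syt6 neurons, at 213, 222 and 212 CPM (216 ± 5.76). Its mean levels in L2/3-Rorb (345 ± 11.3), L2/3-Calb1 (342 ± 2.90), L5-Bcl6 (339 ± 25.4), L5-S100b (328 ± 20.2) and L5-Htr2c neurons (317 ± 19.1) formed a run in which neighbours overlapped. L6-Npy neurons came next with 285 ± 13.5 CPM, below the range of L5-Htr2c and above that of L6-Syt6. From top to bottom the fold was 1.60.

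Grin2b separated the subtypes further. It was highest in L2/3-Calb1 neurons (785 ± 25.6 CPM), followed by L5-Bcl6 (715 ± 21.3), L2/3-Rorb (614 ± 17.3), L5-S100b (598 ± 8.33), L6-Npy (588 ± 25.5) and L6-Syt6 (473 ± 12.3). In L5-Htr2c neurons it was lowest, at 412, 383 and 440 CPM (412 ± 28.7), 1.91-fold below the top. In this order 5 of the 6 neighbour pairs did not overlap, the exception being L5-S100b and L6-Npy.

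Grin3a split the subtypes into higher and lower ones. L2/3-Rorb neurons had 72.9, 72.5 and 80.4 CPM (75.3 ± 4.42), while L6-Syt6 neurons had 3.66 ± 0.258 and L5-Bcl6 neurons 5.95 ± 2.68. Between these lay L5-Htr2c (60.8 ± 6.51), L6-Npy (55.0 ± 3.99), L2/3-Calb1 (40.3 ± 2.55) and L5-S100b (32.7 ± 1.56). The top mean was 20.6 times the lowest, and 4 of 6 neighbour pairs did not overlap, with L5-Htr2c and L6-Npy, and L5-Bcl6 and L6-Syt6, overlapping. The layer numbers did not order the gene, since both of the L5 subtypes L5-Htr2c and L5-Bcl6 and both of the L6 subtypes lay far apart. At least 1 Grin3a UMI was found in 65.5% ± 3.97 of L2/3-Rorb cells and in 6.08% ± 0.380 of L6-Syt6 cells. With each cell thinned to 5000 UMIs the shares were 25.5% and 2.03%. Inhibitory markers, whose cells hold more Grin3a, summed to 10.1 to 30.2 CPM in L2/3-Rorb and 4.12 to 5.19 CPM in L6-Syt6 neurons, against 2932 to 3100 CPM in inhibitory cells; their part in the Grin3a levels was not tested.

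Grin2d was low in excitatory neurons, with 444 UMIs over the unsorted libraries, and Grin2c was near the limit of counting. Grin2d was between 1.98 CPM (L6-Npy) and 4.30 CPM (L2/3-Rorb) in 6 subtypes and 0.265 CPM in L5-Bcl6 neurons, where 2 UMIs were counted. Only L6-Npy and L5-Bcl6, the last neighbours in its order, had ranges that did not overlap. Grin2c had 23 UMIs in all 7765 unsorted excitatory neurons. None fell in L2/3-Calb1 or L5-Bcl6 neurons, where a count of 0 allows up to 0.496 and 0.401 CPM (3 UMIs of the summed total, counting error only).

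**Figure D1:**
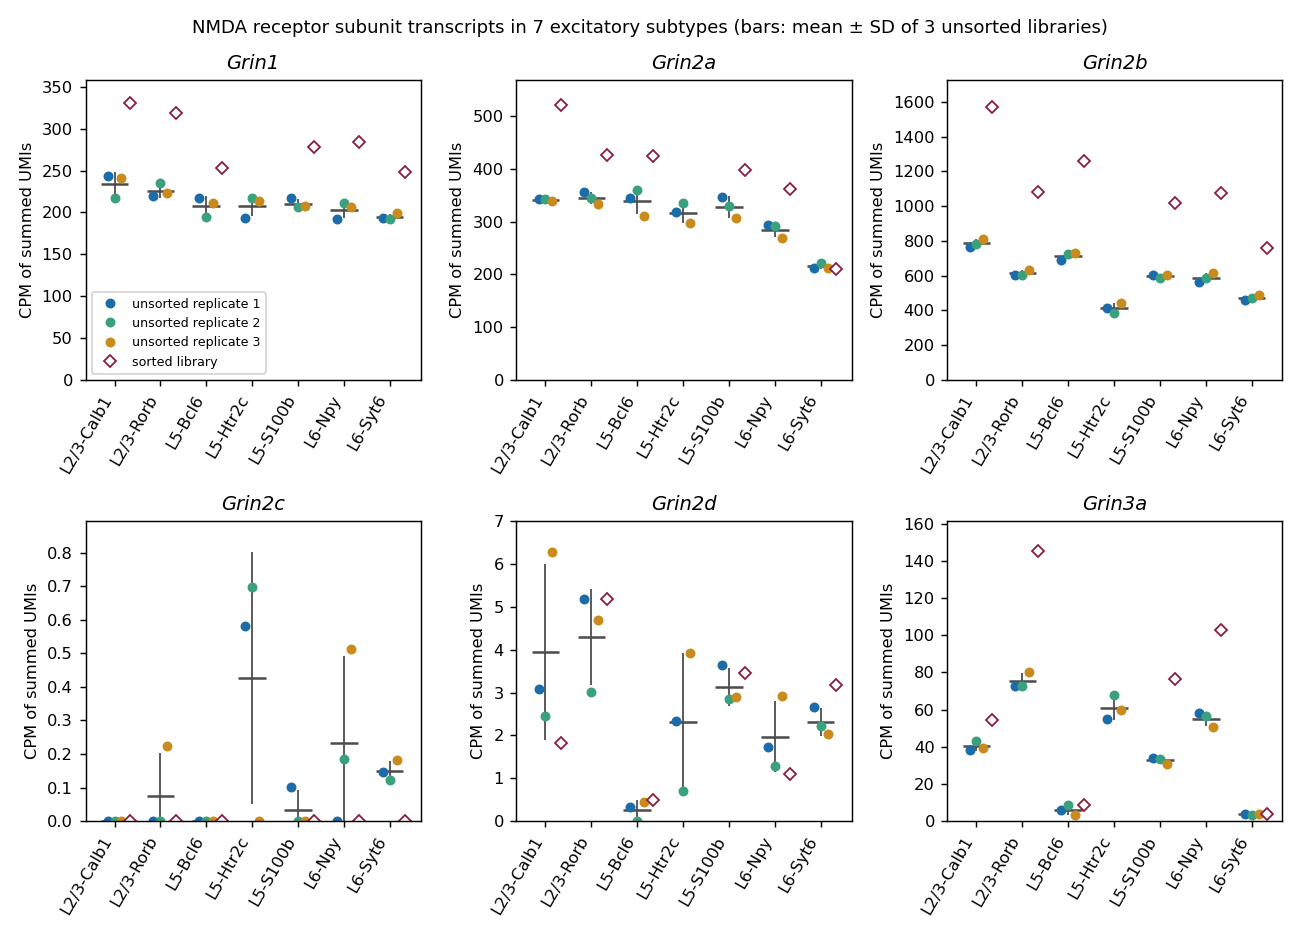
Level of each gene in the 7 excitatory subtypes (y axis, CPM of UMIs summed per library, separate scale per gene; circles, unsorted libraries; diamonds, sorted library; bars, mean ± SD of the 3 unsorted libraries). Grin3a ran from 75.3 CPM in L2/3-Rorb to 3.66 CPM in L6-Syt6 neurons, Grin1 only from 234 to 195 CPM.

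The Grin2a to Grin2b ratio (UMIs of the one per UMI of the other) set L5-Htr2c neurons apart. The ratio there was 0.772, 0.878 and 0.677 (0.776 ± 0.101), and no other subtype reached this range. The other 6 subtypes formed a run of overlapping neighbours, from L2/3-Rorb (0.562 ± 0.0329) and L5-S100b (0.548 ± 0.0350) through L6-Npy (0.486 ± 0.0424), L5-Bcl6 (0.475 ± 0.0411) and L6-Syt6 (0.456 ± 0.0190) to L2/3-Calb1 (0.436 ± 0.0176). The extremes differed 1.78-fold. L5-Htr2c neurons combined the lowest Grin2b with a Grin2a level inside the main run. L6-Syt6 neurons had low levels of both genes and a ratio inside the run. L5-Htr2c cells were the shallowest subtype (median 14549 UMIs, against 18593 to 25561.5), and their 5 astrocyte markers summed to 92.1 to 122 CPM, above the 6.81 to 29.9 CPM of the other subtypes; the part of either in the ratio was not tested. Astrocyte-like cells hold 64.3 CPM of Grin2b and 3.79 CPM of Grin2a at 11754 to 12104 CPM of these markers.

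Excitatory neurons as a whole had a ratio of 0.508, 0.505 and 0.460 (0.491 ± 0.0268), and inhibitory cells one of 0.279, 0.348 and 0.279 (0.302 ± 0.0401). The groups did not overlap in these unsorted libraries. Pooled excitatory neurons of the sorted library had a ratio of 0.328, inside the inhibitory range, and were not part of the tests. On the log2 scale the unsorted groups differed by 0.71. In a two-sided exact permutation test p was 0.1, which is the smallest p that 3 libraries against 3 can give. That test takes the 6 values as independent, although both groups came from the same 3 libraries. Within libraries the ratio was higher in excitatory neurons in 3 of 3, with p = 0.25 in a two-sided exact sign-flip test, which is the smallest that 3 libraries allow.

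**Figure D2:**
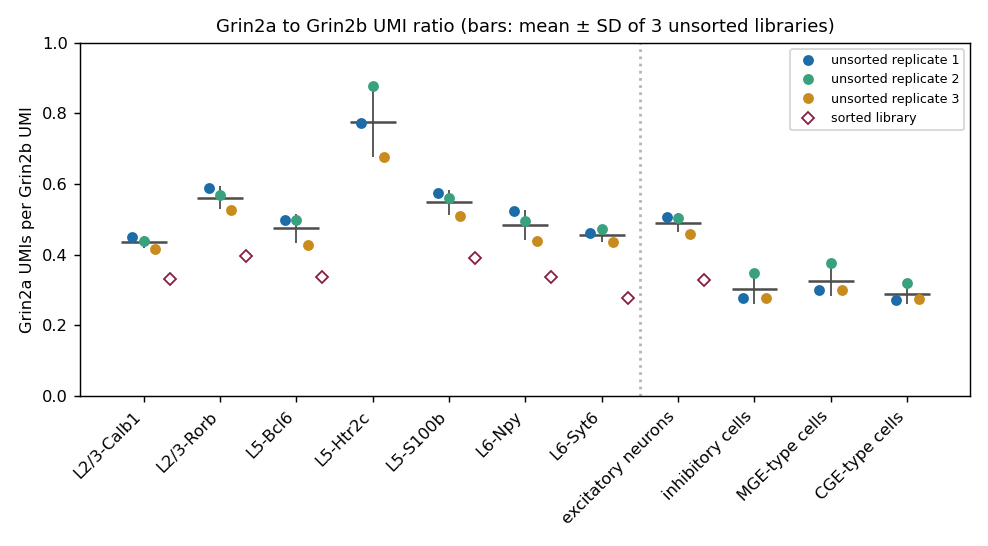
Grin2a UMIs per Grin2b UMI (y axis) in each excitatory subtype and, right of the dotted line, in pooled excitatory neurons and inhibitory cells (circles, unsorted libraries; diamonds, sorted library; bars, mean ± SD of the 3 unsorted libraries). L5-Htr2c neurons had the highest mean (0.776) and inhibitory cells lay at 0.302.

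The sorted library differed from the unsorted ones in the levels and in the ratio. It holds neurons with more UMIs (median 31669, against 21343.5 to 23213), and being a single library it allows a description only. L5-Htr2c had 4 sorted cells and was left out. Grin2b in sorted cells lay above the unsorted range in 6 of 6 subtypes (761 to 1570 CPM), as did Grin1 (248 to 331 CPM). Grin2a lay above in 5 and below in L6-Syt6 neurons (211 CPM). The Grin2a to Grin2b ratio lay below the unsorted range in all 6, from 0.277 in L6-Syt6 to 0.395 in L2/3-Rorb neurons. Grin3a was above the unsorted range in 5 of 6 subtypes, with 145 CPM in L2/3-Rorb, 103 in L6-Npy and 76.4 in L5-S100b neurons, and inside it in L6-Syt6. The effects of the sort, of the animals and of the library itself cannot be told apart here.

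Excitatory and inhibitory cells differed in the GluN2A, GluN2D and GluN3A genes and little in Grin1 and Grin2b. Fitted across 15266 genes with edgeR's quasi-likelihood test (trimmed-mean scaling, TMM; library as a block; a gene was called where its Benjamini-Hochberg adjusted p was below 0.05 and its log2 fold change 0.5 or more in size), 4 of the 6 genes were called, 1 higher and 3 lower in excitatory neurons. Of all genes tested, 40.4% were called. Grin2c passed the filter on low counts through the inhibitory cells alone, so the count of called subunits is not read as support.

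Grin2a had 266, 267 and 252 CPM in excitatory neurons and 140.1, 171 and 146 CPM in inhibitory cells. Every excitatory value lay above every inhibitory one, and the log2 fold change was 0.88 (SE 0.036, adjusted p = 5.34e-24). At least 1 Grin2a UMI was seen in 96.3% of excitatory and 48.1% of inhibitory cells, and in 68.8% and 32.2% once each cell was thinned to 5000 UMIs. Grin2b was found in 99.7% and 97.5% of these cells before thinning, and 47.3% of inhibitory cells held UMIs of both genes.

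Grin3a was lower in excitatory neurons, at 21.5, 20.9 and 21.4 CPM against 272, 265 and 283 CPM in inhibitory cells (log2 fold change -3.58, SE 0.043, adjusted p = 4.05e-43). With the L6-Syt6 neurons left out of the excitatory sums the difference was -2.54 (edgeR adjusted p = 6.88e-22). Grin2d, at 2.81, 2.16 and 2.60 CPM against 49.1, 56.0 and 51.1 CPM, was lower as well (-4.26, SE 0.10, adjusted p = 2.48e-32). For both genes the groups were far from overlapping. Grin2d UMIs were found in 49.9% of inhibitory and 5.25% of excitatory cells, or 23.6% and 1.28% after thinning to 5000 UMIs.

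Grin2c had 9 UMIs in inhibitory cells and 23 in excitatory neurons (log2 fold change -1.75, SE 0.69, adjusted p = 0.0231). This call was lost with DESeq2, with no filter on low counts, and without unsorted replicate 1 or 2, and adjusted p ranged from 0.0165 to 0.172 over the 8 alternatives that tested the gene. Grin1 (203 ± 2.43 and 196 ± 3.33 CPM; 0.15, SE 0.030, adjusted p = 3.61e-05) and Grin2b (533 ± 12.8 and 506 ± 16 CPM; 0.18, SE 0.025, adjusted p = 3.47e-08) differed by less than the fold limit. Without TMM scaling the Grin1 difference was 0.05 (adjusted p = 0.178). The inhibitory cells were shallower (median 13599.5 against 22251 UMIs). Their sums of other markers were higher than those of excitatory neurons, with all 5 of 5 markers detected in each list: 42.3 to 129 CPM of microglia markers against 10.7 to 13.3, and 24.3 to 33.8 CPM of markers of oligodendrocyte precursor cells (OPCs) against 4.78 to 5.94. Microglia-like cells themselves held 1.19 CPM of Grin3a and OPC-like cells, at 8043 to 8305 CPM of OPC markers, held 271 CPM.

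Within the inhibitory cells, Grin3a was higher in cells of the medial ganglionic eminence type (MGE, marked by Lhx6) than in cells of the caudal type (CGE, marked by Adarb2), and within the MGE-type cells it lay almost wholly in those with Sst. MGE-type cells, with Lhx6 and no Adarb2 UMI, numbered 421 (32.9%), and CGE-type cells, the converse, 795 (62.2%). Sst UMIs were found in 86.2% of MGE-type cells and Pvalb UMIs in 14.5%, and Vip UMIs in 64.0% of CGE-type cells. Grin3a had 526, 533 and 572 CPM in MGE-type and 54.5, 62.3 and 58.3 CPM in CGE-type cells, with no overlap (log2 fold change 3.22, SE 0.063, edgeR adjusted p = 3.53e-24). It was 1 called gene of the 5 tested, where 21% of all 11515 genes were called. Shares of cells with a UMI were 85.0% and 30.4%, and 75.6% and 21.6% after thinning to 5000 UMIs.

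The 353 MGE-type cells with at least 10 UMIs of Sst, the gene of the peptide somatostatin, had 635, 624 and 642 CPM of Grin3a and held 4157 of the 4208 Grin3a UMIs of MGE-type cells. The 35 cells with at least 3 UMIs of Pvalb, the gene of the calcium-binding protein parvalbumin, and under 10 of Sst had 0, 8.23 and 16.9 CPM, from 5 UMIs in all, below every CGE-type value. The 33 cells in neither set had 94.7 ± 43.1 CPM. This split was chosen after these values were seen and is given without a test.

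The other subunits differed little between these origins. Grin2d was 45.4 CPM in MGE-type and 57.7 CPM in CGE-type cells (log2 fold change -0.34, adjusted p = 0.00627), Grin1 210.5 and 184 CPM (0.20, adjusted p = 0.00996) and Grin2a 166 and 144 CPM (0.21, adjusted p = 0.0102), all under the fold limit in the edgeR fit. Grin2b had 511 and 498 CPM (0.04, adjusted p = 0.561), and Grin2c was too low to be tested. CGE-type cells, at 54.5 to 62.3 CPM of Grin3a, lay within the span of the excitatory subtypes. The MGE-type cells with Sst lay above that span in every library, and those with Pvalb lay near its lower end.

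Among glia, Grin2c was found in astrocyte-like cells and Grin3a and Grin2d in OPC-like cells. These cells were named from at least 3 of 5 markers, with at most 1 marker of any other list. Microglia-like cells, the largest glial class, were the reference in both comparisons, which therefore share them.

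Grin2c had 342, 326 and 335 CPM in the 410 astrocyte-like cells (334 ± 8.26, from 447 UMIs) and 6 UMIs in 2647 microglia-like cells (0.543 CPM). The ratio of pooled CPM was 612 (95% exact interval 279 to 1677, counting error only), and the log2 fold change 8.44 (SE 0.218, edgeR adjusted p = 9.70e-48). Means in the other classes ran from 0 to 0.645 CPM, and 0 UMIs were counted in endothelial-like and mural-like cells, which allows up to 0.722 and 2.50 CPM (3 UMIs of the summed total). Astrocytes clear glutamate from the synapse, and Grin2c was the subunit gene whose sequence is given in the opening. A Grin2c UMI was seen in 63.5% of astrocyte-like and 0.223% of microglia-like cells, and in 47.1% and 0.200% after thinning to 2000 UMIs. Astrocyte-like cells also held more Grin2b (62.2, 53.4 and 77.2 CPM against a mean of 6.28; 2.67, SE 0.251, adjusted p = 1.22e-15) and Grin3a (22.5 ± 4.16 against 1.19 CPM; 3.51, SE 0.474, adjusted p = 7.38e-10). Excitatory markers summed to 30.5 to 63.0 CPM in astrocyte-like and 58.4 to 63.4 CPM in microglia-like cells. Grin1 did not pass (10.4 against 6.98 CPM; -0.09, adjusted p = 0.859), and without TMM scaling, which moved the median of all genes from -0.10 to 0.58, its difference was 0.59 (adjusted p = 0.246). Without TMM scaling the differences of the called genes were larger, at 9.11 for Grin2c, 3.35 for Grin2b and 4.18 for Grin3a. In all, 3 of the 4 genes that passed the filter were called, and 65.4% of all genes were called. Grin2c and Grin3a passed the filter through the astrocyte-like cells alone, so that count is not read as support.

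In the 922 OPC-like cells Grin3a had 286, 289 and 236 CPM (271 ± 29.9), near the 273 CPM of all inhibitory cells. The ratio to microglia-like cells was 230 (95% exact interval 134 to 433), with a log2 fold change of 6.81 (SE 0.174, edgeR adjusted p = 2.00e-120). Grin2d had 22.7, 17.2 and 23.5 CPM, or 75 UMIs against 5 (ratio 46.0, interval 18.9 to 146; 4.44, SE 0.460, adjusted p = 6.23e-19). Grin3a UMIs were found in 59.97% of OPC-like and 0.495% of microglia-like cells, and in 41.0% and 0.211% after thinning to 2000 UMIs. Inhibitory cells hold both genes too. Their 5 markers, all detected, summed to 47.9 to 52.4 CPM in OPC-like and 9.29 to 13.6 CPM in microglia-like cells. In inhibitory cells themselves they summed to 2932 to 3100 CPM. MGE-type markers summed to 482 to 528 CPM in OPC-like and 18.8 to 27.8 CPM in microglia-like cells, although Lhx6 among them was at 0 in OPC-like cells. CGE-type markers summed to 199 to 228 CPM and 24.7 to 31.9 CPM. The part of these markers' source in the Grin3a and Grin2d levels was not tested. Grin2b was called lower (-0.93, SE 0.351, adjusted p = 0.0113), but without TMM scaling, which moved the median of all genes from -0.02 to 0.96, the difference was 0.04 (adjusted p = 0.923). Its CPM were alike (6.40 ± 0.839 and 6.28), and the call was lost with DESeq2 and without unsorted replicate 1 or 3. Grin1 stood at 19.0 ± 3.95 CPM (0.45, adjusted p = 0.101) and was called higher without TMM scaling (1.43) and without unsorted replicate 1 (0.88). Without TMM scaling the difference was 7.78 for Grin3a and 5.39 for Grin2d, and Grin2d ranged from 3.81 (without unsorted replicate 1) to 5.04 (without unsorted replicate 3). Of the 4 genes tested 3 were called, against 68.5% of all genes. Grin2d and Grin3a passed the filter through the OPC-like cells alone, so that count is not read as support.

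**Figure D3:**
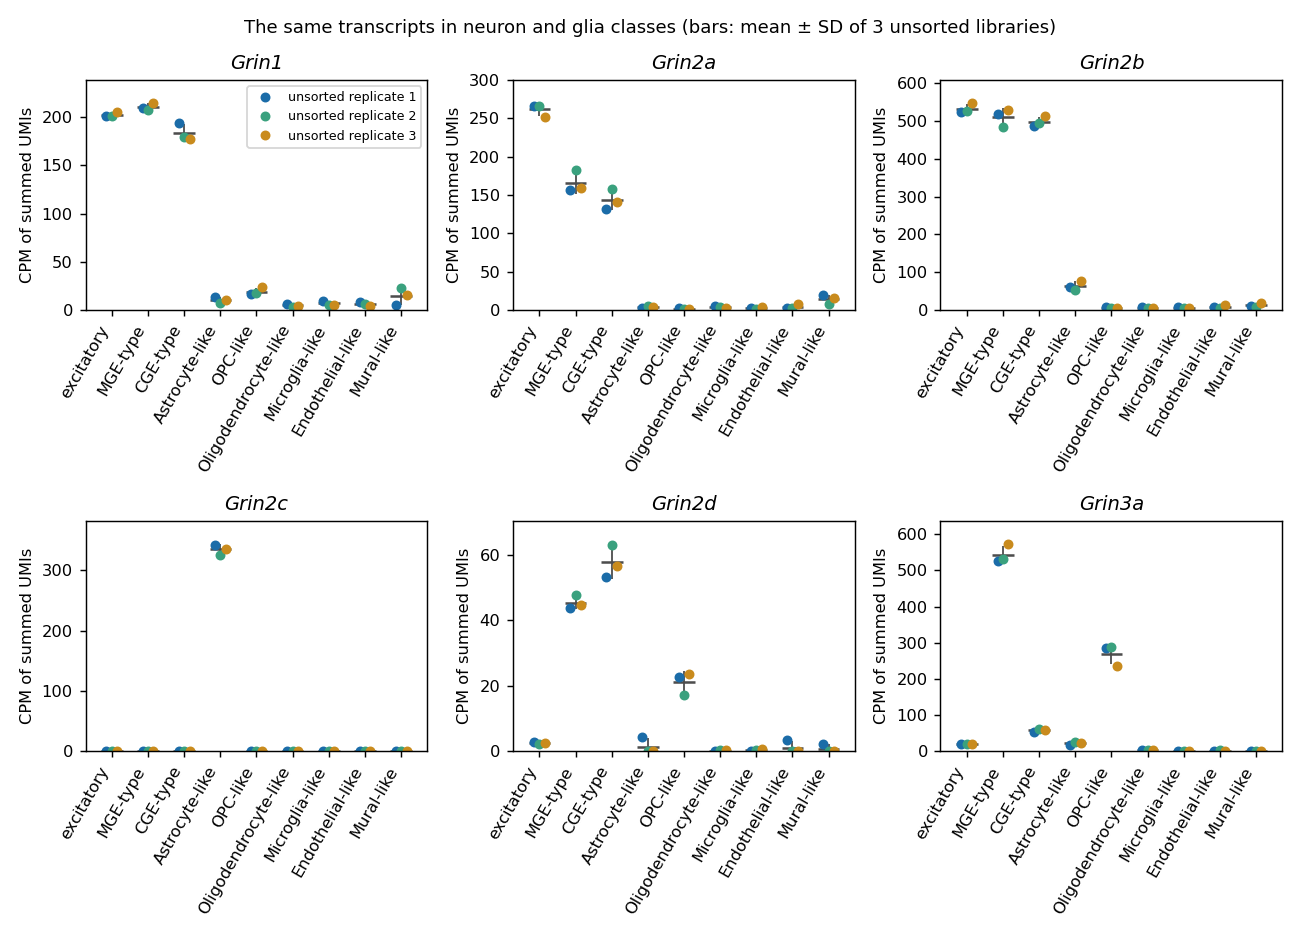
Level of each gene in excitatory neurons, the inhibitory types and the glial and vascular classes (y axis, CPM, separate scale per gene; circles, the 3 unsorted libraries; bars, mean ± SD). Grin2c stood at 334 CPM in astrocyte-like cells, and Grin3a at 544 CPM in MGE-type and 271 CPM in OPC-like cells.

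Viral barcodes mark neurons with an axon in an injected target, so barcode-high neurons (at least 5 barcode UMIs) were compared with barcode-zero neurons of the same subtype. The matrices hold 1 feature named barcode, which was taken to hold the barcodes of all targets. This was not tested, the methods describe separate genes per barcode, and the groups rest on that reading. Targets are not separated, and a neuron without barcode may still project to one. Fits used edgeR across all genes with the library as a block. They took the 3 unsorted libraries in L2/3-Calb1 and L5-Bcl6 and all 4 libraries in the other subtypes, and L5-Htr2c was not fitted. Cells of the sorted library had been sorted for EGFP, which the viruses carry. Its barcode-zero neurons may thus hold virus without a counted barcode, unlike a group of unlabelled neurons. The sorted library is therefore not a like repeat of the unsorted comparison.

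Grin3a was lower in barcode-high than in barcode-zero neurons of L5-S100b and L6-Npy. In L5-S100b neurons it had 28.0, 30.8 and 25.2 CPM (unsorted) and 64.4 CPM (sorted) when barcode-high, against 51.01, 57.2, 56.1 and 106 CPM when barcode-zero. Within each of the 4 libraries the barcode-high value was the lower one, although the sorted barcode-high value exceeded the unsorted barcode-zero ones. The log2 fold change was -0.85 (SE 0.114, adjusted p = 4.35e-06). It was 1 called gene of the 5 tested, with 2.7% of all genes called. Without the library block the fold was -0.80 with adjusted p = 0.393.

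In L6-Npy neurons the Grin3a values were 47.8, 44.5, 48.9 and 86.9 CPM against 83.6, 78.5, 57.3 and 125 CPM. Again all 4 libraries had the lower value in barcode-high neurons (log2 fold change -0.58, SE 0.101, adjusted p = 0.000398), and it was 1 called gene of 4 tested, with 0.801% of all genes called. The call was lost with DESeq2 (-0.59, adjusted p = 0.173), without the library block (-0.58, adjusted p = 1.00) and with 1 or more barcode UMIs as the limit, where the fold was under 0.5 (-0.46, adjusted p = 0.00292).

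In the upper layer subtypes the fitted Grin3a difference was positive but did not pass the test. In L2/3-Rorb neurons the log2 fold change was 0.30 (SE 0.116, adjusted p = 0.477; higher in 3 of 4 libraries) and in L2/3-Calb1 neurons 0.52 (SE 0.226, adjusted p = 0.819; higher in 2 of 3). In L6-Syt6 neurons it was -0.39 (SE 0.220, adjusted p = 0.299), and without the sorted library -0.56 (adjusted p = 0.0252), past the threshold. In L5-Bcl6 neurons 33 UMIs were counted in barcode-high and 2 in barcode-zero cells, a ratio of 4.31 (95% exact interval 1.10 to 37.1), and the gene was not tested.

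The difference of the barcode effect between subtypes was tested itself in a joint edgeR fit of all 6 (44 sums, 11388 genes, 15 pairs of subtypes). Adjustment was over 170820 combinations of a gene and a pair, of which 1333 had an adjusted p under 0.05. The Grin3a effect of L2/3-Rorb exceeded that of L5-S100b by 1.15 (adjusted p = 0.00149) and that of L6-Npy by 0.89 (adjusted p = 0.0164), and the effect of L2/3-Calb1 exceeded that of L5-S100b by 1.34 (adjusted p = 0.0227). The difference between L2/3-Calb1 and L6-Npy, 1.08, did not pass (adjusted p = 0.0980).

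**Figure D4:**
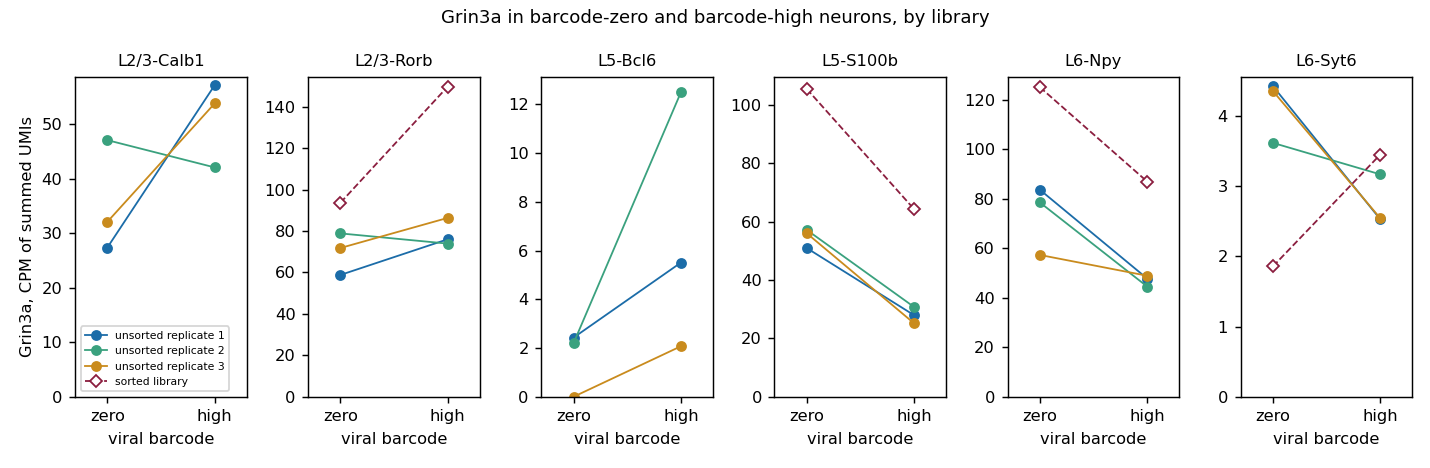
Grin3a level (y axis, CPM, separate scale per panel) in barcode-zero and barcode-high neurons of 6 subtypes, with a line per library (circles, unsorted; diamonds and dashed line, sorted). All 4 lines fall in L5-S100b and in L6-Npy neurons.

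Grin2a was lower in barcode-high L6-Syt6 neurons in every library, at 181, 198, 189 and 179 CPM against 220.3, 229, 219 and 286 CPM. The groups did not overlap, and adjusted p was 0.0364, but the log2 fold change of -0.29 (SE 0.068) was under the fold limit, so that the gene was not called. In L6-Npy neurons it was higher in 4 of 4 libraries (0.17, adjusted p = 0.155). The joint edgeR fit gave a difference of 0.47 between these 2 subtypes (adjusted p = 0.00470) and of 0.50 between L2/3-Calb1 and L6-Syt6 (adjusted p = 0.0198).

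Grin1 was higher in barcode-high L5-S100b neurons in 4 of 4 libraries, at 225, 212, 214 and 285 CPM against 186, 181, 179 and 256 CPM (log2 fold change 0.26, SE 0.064, edgeR adjusted p = 0.00958, under the fold limit). Its effect there exceeded that in L6-Syt6 by 0.35 (adjusted p = 0.0330). Grin2b had log2 fold changes between -0.06 and 0.11 in the 6 subtypes and was called in none. Grin2d was tested in 2 subtypes, with 83 UMIs in barcode-high and 21 in barcode-zero L5-S100b neurons, lower in CPM in 4 of 4 libraries and without overlap, but short of the threshold (-0.86, SE 0.386, adjusted p = 0.235).

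No gene of the 6 was called in L2/3-Calb1, L2/3-Rorb, L5-Bcl6 or L6-Syt6 neurons by edgeR or by DESeq2, while 0.18%, 0.139%, 0.0686% and 1.67% of all genes were called by edgeR. At an unadjusted p below 0.05 there was 1 in each. Barcode-high neurons were deeper than barcode-zero neurons in every library, for example with medians of 25553.5 to 34389 against 19306.5 to 28185 UMIs in L5-S100b. With each cell thinned to 10000 UMIs, Grin3a in L5-S100b gave -0.77 (adjusted p = 0.00730). Inhibitory markers in L5-S100b summed to 0.414 to 3.53 CPM in barcode-high neurons (5 of 5 detected) and 0 to 5.80 CPM in barcode-zero neurons (3 of 5). Mural markers in L6-Syt6 summed to 6.25 to 11.3 CPM in barcode-high and 24.0 to 35.3 CPM in barcode-zero neurons, with 5 of 5 detected in both, and their part in the results was not tested.

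**Figure D5:**
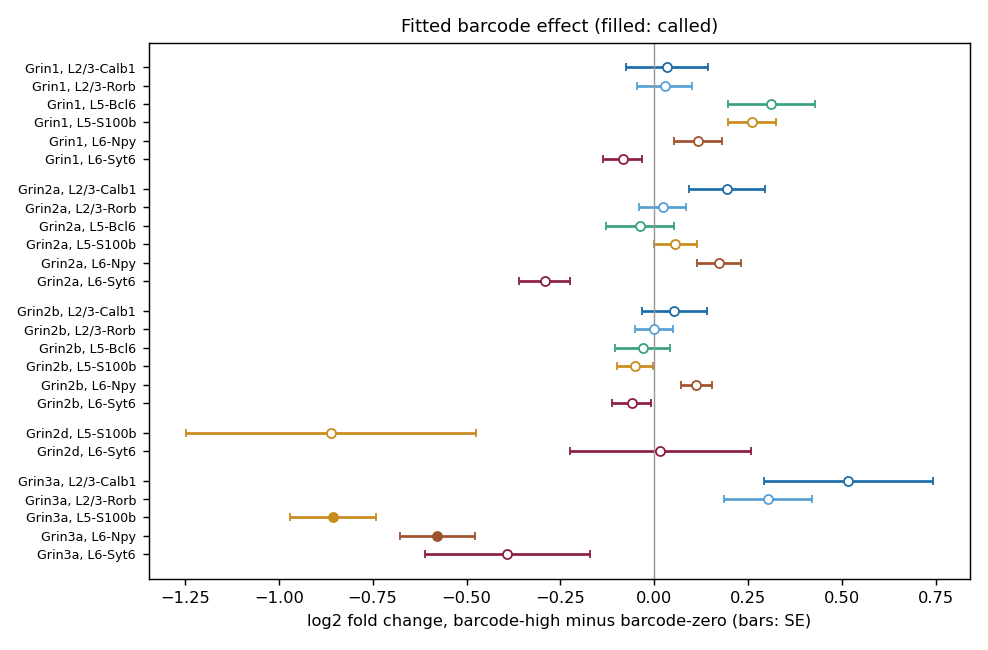
Fitted log2 fold change, barcode-high minus barcode-zero (x axis; bars, SE), for each gene and subtype that was tested; filled points were called. Grin3a in L5-S100b (-0.85) and L6-Npy (-0.58) were the called ones, and Grin2b lay between -0.06 and 0.11.

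The partners of the receptor were followed with a list of 36 genes of the postsynaptic scaffold, its kinases and glycine and D-serine handling. Between excitatory and inhibitory neurons 16 of 35 tested were higher in excitatory neurons, 7 were lower and 12 were not called, with a median log2 fold change of 0.29 against 0.01 over all genes, of which 40.4% were called. Ptk2b, a calcium-regulated tyrosine kinase, was higher (4.07, SE 0.059, edgeR adjusted p = 5.11e-40). Rasgrf2, a Ras exchange factor (-2.36), the scaffold gene Homer3 (-2.09), Neto1, an auxiliary protein of glutamate receptors (-2.005), and Slc6a9, the glycine transporter GlyT1 (-1.67), were lower, with adjusted p between 1.27e-40 and 7.30e-06.

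Between MGE-type and CGE-type cells 4 of 33 were higher in MGE-type cells and 10 lower (median -0.06, against -0.00 over all genes, of which 21% were called), among them Homer2 (-2.19), Ptk2b (-1.28), Ephb2 (-1.10) and Dlgap3 (-1.07) as lower and Dlgap2 (1.48) as higher. The call of Ephb2 was lost with DESeq2 (adjusted p = 0.0956). Against microglia-like cells, 16 of 26 were higher and 5 lower in astrocyte-like cells (median 1.05, all genes -0.10 with 65.4% called). In OPC-like cells 22 of 33 were higher and 6 lower (median 1.33, all genes -0.02 with 68.5% called). Slc7a10, the transporter Asc-1 that carries D-serine and glycine, led both (9.93 in astrocyte-like and 6.32 in OPC-like cells), and Slc6a9 (5.96), Neto1 (5.26) and the kinase Fyn (4.61) were also higher in OPC-like cells. Ptk2b was lower in both (-4.11 and -4.46).

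In the barcode comparisons few of these genes were called. Homer2 (0.80, SE 0.110, edgeR adjusted p = 6.42e-06) and Homer1 (0.50, SE 0.062, adjusted p = 1.17e-06), both postsynaptic scaffold genes, were higher in barcode-high L5-S100b neurons, 2 of 33 tested, with 2.7% of all genes called. Homer1 was at the fold limit and lost its call without the library block (adjusted p = 0.0792), and it fell to 0.48 without TMM scaling, 0.46 without unsorted replicate 2, 0.45 with 1 or more barcode UMIs as the limit and 0.49 thinned to 10000 UMIs. Camk2d, a CaM kinase II subunit, was lower in L5-Bcl6 neurons (-2.26, SE 0.447, adjusted p = 0.0424), 1 of 31 tested, with 0.0686% of all genes called. The Camk2d call was lost with DESeq2's size factors in edgeR (adjusted p = 0.0532), with DESeq2 (-2.16, adjusted p = 1.00), without the library block (0.188), without unsorted replicate 2 (0.0742) and with 1 or more barcode UMIs as the limit (0.212). No gene of the list was called by edgeR or DESeq2 in the other 4 subtypes, with 5, 7, 6 and 12 genes at an unadjusted p below 0.05 in L2/3-Calb1, L2/3-Rorb, L6-Npy and L6-Syt6.

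The genes whose levels ran most like each subunit over the 21 sums (7 subtypes by 3 libraries) were taken from 9012 genes by Pearson's r of log2 CPM. These sums share libraries and subtypes, and r is a description. For Grin2a they were Kcnb2 (r = 0.944), Gcnt2 (0.941) and 2510009E07Rik (0.924), and for Grin2b 2010300C02Rik (0.972), Cnksr2 (0.957) and Thap12 (0.955). For Grin3a they were Tmem108 (0.934), Nrn1 (0.920) and Fhl1 (0.893). Grin1, the gene with the smallest range, had lower values, led by Lpcat4 (0.800), Prdm10 (0.794) and Tmem175 (0.791). For Grin2d, at a mean of 2.61 CPM, they were Kcnh1 (0.885), Coprs (0.879) and Usp13 (0.876), and for Grin2c, at 0.131 CPM, Safb (0.765), Ddx49 (0.738) and Lpin1 (0.730), both from few UMIs.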

How the data were processed

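Libraries were Chromium 3′ v3, and the authors made the deposited matrices of raw UMI counts with Cell Ranger 3.0.2 against mm10 with the viral barcodes added; the counts are not normalized, and Seurat 3.1.4 is named in the submitters' processing notes. The subtype of each excitatory neuron was taken from the authors' deposited annotation. Other cells were kept with 500 to 8000 genes, a total of 1000 to 60000 UMIs and a mitochondrial share below 20%. No doublet caller was run here. Libraries shared 5 to 30 cell barcodes pairwise. UMIs were summed per library and cell group (at least 10 cells), the viral feature was left out, and sums were fitted across all genes with edgeR 4.0.16 in R 4.3.3 (TMM, quasi-likelihood test, library as block); DESeq2 1.42.0 was an alternative. The study's methods tested single cells, which are not replicates, so sums were tested instead. Both groups of each comparison came from the same libraries, which is why the block was used. As a check, their deviations from the group means correlated in excitatory and inhibitory sums at r = 0.301 to 0.645 over 3420 genes (lowest over all 10 comparisons and the 3 unsorted libraries -0.086, L2/3-Calb1). The labels name separate mice for the 3 unsorted libraries; p-values measure the spread between these libraries. Intervals and floors (3 UMIs) cover counting error only. The scripts were tested on simulated data.

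The 6 genes and all lists were chosen with earlier results of these data known. All 6 are named in every comparison, and of the 36 partner genes up to 5 called ones with the largest fold change. The fits without TMM, the joint fit, the sign-flip test and a split of the MGE-type cells were chosen after seeing the data. The annotated excitatory neurons also define the subtypes, so no test compares levels between subtypes. The joint fit compared only the barcode effect between them.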

Additional observations from a re-analysis of the deposited data

Results flagged for a closer look

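For 10 combinations of a gene and a pair of subtypes the barcode effect (log2 fold change, barcode-high minus barcode-zero) differed, either in the joint edgeR fit or because every library of one subtype moved one way and every library of the other the opposite way. Grin3a effects differed by 1.34 between L2/3-Calb1 and L5-S100b, by 1.15 between L2/3-Rorb and L5-S100b and by 0.89 between L2/3-Rorb and L6-Npy, past the threshold in the joint fit (adjusted p = 0.0227, 0.00149 and 0.0164). They differed by 2.94 between L5-Bcl6 and L5-S100b and by 2.68 between L5-Bcl6 and L6-Npy, where the libraries moved in opposite directions but the joint fit did not pass (adjusted p = 0.239 and 0.335) and L5-Bcl6 had 2 UMIs in barcode-zero cells. Grin2a effects differed by 0.50 between L2/3-Calb1 and L6-Syt6 (adjusted p = 0.0198) and by 0.47 between L6-Npy and L6-Syt6 (adjusted p = 0.00470). Grin1 effects differed by 0.35 between L5-S100b and L6-Syt6 (adjusted p = 0.0330) and by 0.43 between L5-Bcl6 and L6-Syt6 (adjusted p = 0.0874). The Grin2b effects of L6-Npy and L6-Syt6 differed by 0.18 (adjusted p = 0.404).

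In L6-Syt6 neurons the sorted library stood apart from the 3 unsorted ones for 2 genes. The log2 ratio of barcode-high to barcode-zero CPM was -0.67 in the sorted library for Grin2a, against -0.29, -0.21 and -0.21 in the unsorted libraries. For Grin2b it was -0.31, against -0.04, -0.06 and -0.02. Chance alone gives such a gap in about 1 in 20 groups.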

How the results depend on the processing

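Among the counts of called subunit genes, 95 of 100 alternative values stayed within 1.5 times the reported count. The exceptions were L5-S100b with no replicate block (0 called), L6-Npy with DESeq2, with no replicate block and with 1 or more barcode UMIs (0 called each), and L6-Syt6, where leaving out 1 library gave 0 to 1 called, the 1 being Grin3a without the sorted library. The replicate block changed no other count of called subunit genes. The Grin2a to Grin2b ratio moved by over 1 SD in the sorted library (0.332 in L2/3-Calb1, 0.395 in L2/3-Rorb, 0.337 in L5-Bcl6, 0.391 in L5-S100b, 0.338 in L6-Npy, 0.277 in L6-Syt6), in barcode-zero L5-S100b neurons (0.510) and in L6-Syt6 neurons thinned to 10000 UMIs (0.477). Directions turned for 23 values. These were, against microglia-like cells without TMM, Grin1 in astrocyte-like (0.59) and Grin2b in OPC-like cells (0.039), and Grin1 in astrocyte-like cells leaving out 1 library (-0.24 to 0.029). The others were barcode effects of genes not called. Leaving out 1 library gave Grin2b in L2/3-Calb1 -0.016 to 0.17, in L2/3-Rorb Grin1 -0.055 to 0.082, Grin2a -0.016 to 0.093 and Grin2b -0.050 to 0.030, in L5-Bcl6 Grin2a -0.095 to 0.074 and Grin2b -0.11 to 0.047, and Grin2d in L6-Syt6 -0.17 to 0.25. Without the filter on low counts L5-Bcl6 gave 0.0013 (Grin2a) and 0.0075 (Grin2b). Grin2b in L2/3-Rorb was -0.0019 with DESeq2's size factors in edgeR, -0.0017 with DESeq2, -0.0021 without TMM and -0.017 with 1 or more barcode UMIs. Grin1 in L2/3-Calb1 was -0.010 with 1 or more barcode UMIs and -0.012 thinned. Grin2d in L6-Syt6 was -0.023 without TMM, -0.16 with 1 or more barcode UMIs and -0.21 thinned. Counts of all genes called ranged over the alternatives from 2 to 32 (reported 15) in L2/3-Calb1, 0 to 33 (14) in L2/3-Rorb, 0 to 31 (6) in L5-Bcl6, 56 to 355 (310) in L5-S100b, 0 to 115 (83) in L6-Npy and 27 to 309 (218) in L6-Syt6, and from 1481 (DESeq2) to 2768 (2423) between MGE-type and CGE-type cells. The cause of these changes was not tested. The log2 ratio between excitatory and inhibitory cells ranged from 0.63 to 0.87. Counts of Grin2c in neurons and of Grin2d in L5-Bcl6 neurons (2 UMIs) were near the counting floor.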

Other observations

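The MGE-type cells with Sst and those with Pvalb also differed in other subunits, in the same split and again without a test. Grin2a had 189 ± 16 CPM (SD, n = 3 libraries) in the 353 Sst cells and 62.5, 32.9 and 16.9 CPM in the 35 Pvalb cells, from 31 UMIs. Grin2b (512 ± 25.2 and 458 ± 12.3 CPM) and Grin2d (44.0 ± 2.54 and 53.6 ± 10.9 CPM) were closer together. The Grin2c mean of the Pvalb cells, 2.08 CPM, came from 2 UMIs. Grin3b, the other GluN3 gene and not among the 6, had 11 UMIs in all unsorted excitatory neurons.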
